A study of Mus musculus with 15 samples.

Results

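PBAF is one of the SWI/SNF chromatin remodelers of mammalian cells, and 4 subunits set it apart from the related complexes BAF and ncBAF. They are *Pbrm1*, *Arid2*, *Brd7* and *Phf10*, and their transcripts were followed here in 15 Renca tumors, of a control group and of 2 groups in which *Pbrm1* had been targeted by CRISPR/Cas9. The members were taken by gene symbol from the makeup of the complex, though with earlier results of these data known. All 4 were among the 18279 genes of the deposited table. Renca is a renal carcinoma line of BALB/c mice. The tumors grew under the skin of female BALB/c mice that were 4 to 6 weeks old when bought, from cells injected in Matrigel. Tumors 1 to 5 are the control, tumors 6 to 10 came from *Pbrm1* knockout clone 4 and tumors 11 to 15 from *Pbrm1* knockout clone 18. The sample records give parental Renca cells as the source of the control tumors, whereas the design text calls them control knockout. The knockout lines were made with a plasmid that expresses *Cas9* transiently and a repair plasmid carrying puromycin resistance and a red fluorescent protein, and each grew from a single sorted cell. Each group is thus 1 line, so the genotype cannot be told apart from other differences between the lines, and the spread among the 5 tumors of a group is that between tumors of 1 line. Mice of the study were untreated or received PD-1 antibody, and which of these gave each tumor is not recorded per sample.

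SWI/SNF complexes use the energy of ATP to slide or evict nucleosomes. All forms share an ATPase, *Smarca4* or *Smarca2*, and a core of further subunits, while the form-specific subunits help to decide where in the genome the complex acts. In PBAF, *Arid2* joins the specific subunits to the core in the place that *Arid1a* or *Arid1b* holds in BAF. *Pbrm1* carries a row of bromodomains that bind acetylated histones, *Brd7* carries another bromodomain, and *Phf10* carries paired PHD fingers in the place that *Dpf2* holds in BAF. *PBRM1* is among the genes most often mutated in human clear cell renal carcinoma.

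The genes lie on 4 different chromosomes of GRCm38. *Pbrm1* (ENSMUSG00000042323) spans chr14:31019138-31121592 on the plus strand and *Arid2* (ENSMUSG00000033237) chr15:96287518-96404992 on the plus strand. *Brd7* (ENSMUSG00000031660) spans chr8:88331039-88362194 and *Phf10* (ENSMUSG00000023883) chr17:14945009-14961273, both on the minus strand. RefSeq start sites of GRCm38.p6 gave a promoter sequence for 3 of the 4 genes, and *Arid2* was not in that table. The stretches just upstream of *Brd7* and *Phf10* are printed because these genes differed between the groups without having been targeted, each from 5′ to 3′ and outside every annotated exon of GENCODE M21, with the GC box (GGGCGG, or CCGCCC on the other strand) in capitals. The *Brd7* stretch has 228 bases (chr8:88362195-88362422, minus strand) and the *Phf10* stretch 237 (chr17:14961274-14961510, minus strand).
Brd7: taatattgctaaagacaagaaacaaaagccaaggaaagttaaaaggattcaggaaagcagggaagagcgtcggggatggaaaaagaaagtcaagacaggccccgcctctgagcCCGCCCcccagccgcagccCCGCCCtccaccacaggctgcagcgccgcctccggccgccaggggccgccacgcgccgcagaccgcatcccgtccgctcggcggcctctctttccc
Phf10: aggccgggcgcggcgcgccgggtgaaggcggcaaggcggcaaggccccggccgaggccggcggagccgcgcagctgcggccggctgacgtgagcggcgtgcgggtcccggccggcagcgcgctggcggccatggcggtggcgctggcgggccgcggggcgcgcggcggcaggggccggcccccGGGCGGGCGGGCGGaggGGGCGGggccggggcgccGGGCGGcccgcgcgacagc
The 250 bases before the RefSeq start held 2 GC boxes in *Brd7* and 5 in *Phf10*, of which 3 overlap one another. Over 32851 mouse promoters of the same length, 32.7% held at least 1. The same window of *Pbrm1* held no GC box, 1 CCGGAA and 1 CACGTG, which 12.0% and 6.02% of promoters hold (the first counted on both strands). CCAAT (33.8% of promoters) and TATAAA (12.4%), also counted on both strands, were not found in any of the 3 windows. The *Pbrm1* window is covered by exons of *Gnl3*, which starts on the other strand, and is not printed. These matches describe the letters and are no evidence of binding.

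In the control tumors the 4 transcripts stood in a fixed order per length of exon. *Phf10* had 2491 ± 149.4 normalized counts per kb of exon (SD, n = 5), *Pbrm1* 1019 ± 108.1, *Brd7* 650.4 ± 29.9 and *Arid2* 367.5 ± 64.12, and no 2 neighbours in this order overlapped. In clone 4, *Pbrm1* had dropped to the end of the order at 310.9 ± 24.04 per kb, where its tumors (280.8 to 346.8) overlapped those of *Arid2* (319.4 to 390.3). In clone 18, *Pbrm1* was last at 320.9 ± 23.77 per kb and its highest tumor (354.7) stayed below the lowest of *Arid2* (381.6).

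The library sizes were alike, with 32924414 to 49099168 reads on genes per tumor, and between 1965 and 14666 reads lay on a member in any tumor, so counting error was small beside the spread between tumors. The normalized counts were compared as log2(count + 1) with limma over 18250 genes, and a gene was called at a Benjamini-Hochberg adjusted p under 0.05. Between the 10 knockout and the 5 control tumors, 3 of the 4 members were called, all lower, where 22.1% of all genes were called and 12.9% were called lower. Clone 4 alone had 2 members lower (background 16.8% called, 10.0% lower), clone 18 alone had 3 (24.7% called, 14.2% lower), and between the clones 0 of 4 were called by limma, edgeR or DESeq2 (4.62% of genes by limma), with 1, *Arid2*, at an unadjusted limma p under 0.05. *Pbrm1* is among the called members in each comparison with the control, and because it was the target its call was set by the design. The other called members were *Phf10* and *Brd7* for both clones together and for clone 18, and *Phf10* for clone 4. The *Brd7* call depended on the setting. The comparisons with the control share the same 5 control tumors. RNA of the whole tumor was measured, so fewer cells of a type and less RNA per cell cannot be told apart.

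**Figure D1:**
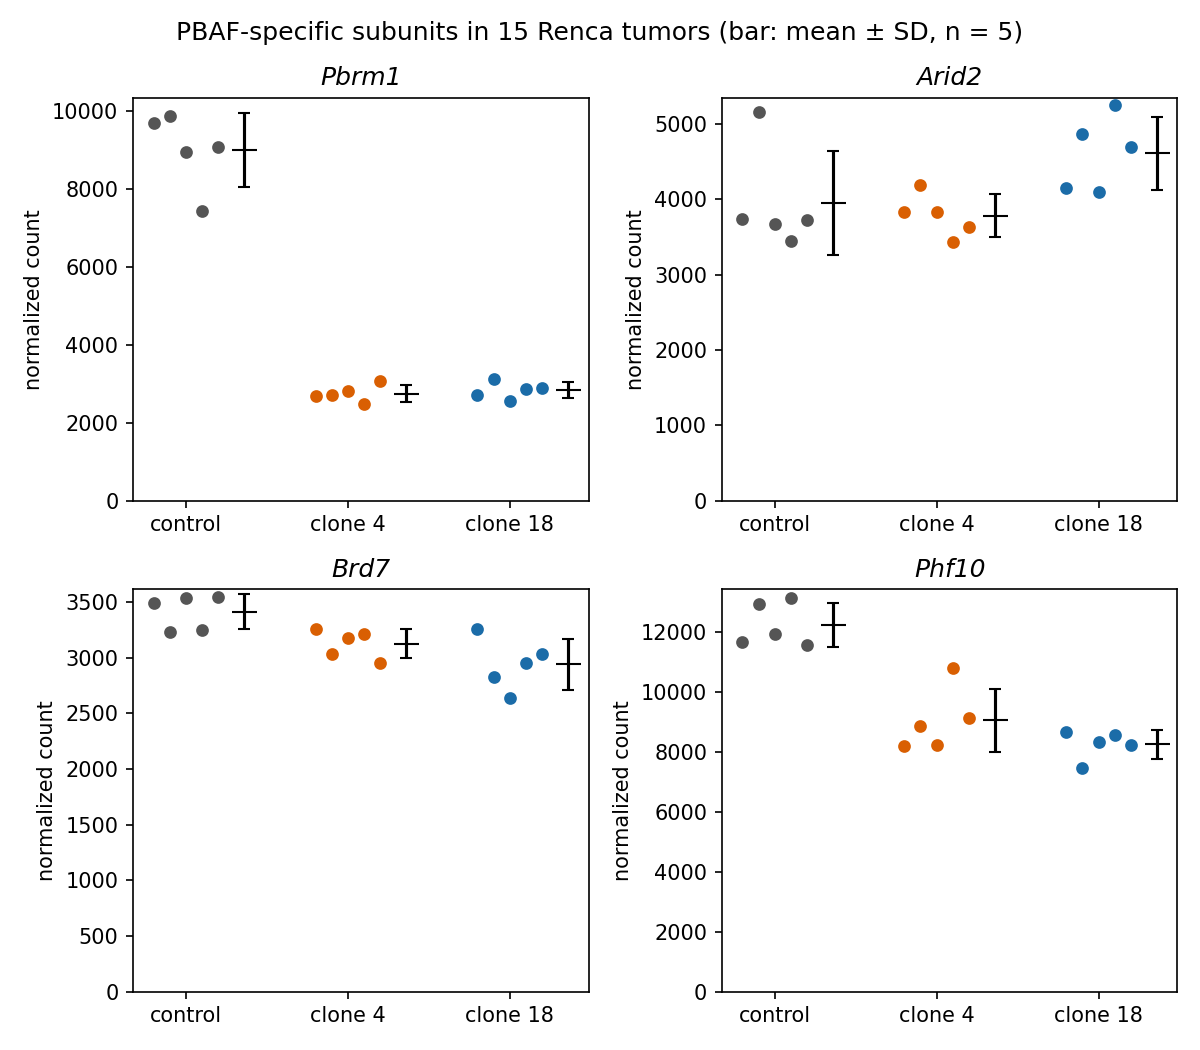
Normalized counts (y axis, from 0) of the 4 PBAF-specific subunits in each tumor by group (x axis), with points for tumors and bars for the mean ± SD of 5. *Pbrm1* and *Phf10* of all 10 knockout tumors lie below all control tumors, whereas the groups overlap for *Arid2* and *Brd7*.

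*Pbrm1* encodes the subunit that was targeted. Control tumors 1 to 5 had 9704.2, 9870.6, 8959.7, 7451.5 and 9075 normalized counts. Clone 4 tumors had 2685.6, 2709.1, 2807, 2483.8 and 3067.8, and clone 18 tumors 2724.7, 3137.5, 2572.1, 2865.7 and 2891.7. Every knockout tumor was thus below every control tumor, and both clones covered nearly the same range. The difference was -1.69 on the log2 scale (SE 0.07, 95% interval -1.83 to -1.54, limma adjusted p = 2.94e-11). The exact two-sided permutation p over 3003 splits of the tumors was 0.000333, the smallest these splits can give. The transcript stayed at 31.0% of the control mean, with 30.5% in clone 4 and 31.5% in clone 18. The clones differed by 0.05 (interval -0.12 to 0.21, adjusted p = 0.818). In cultured cells of these clones the paper reports that the protein was absent and that real-time PCR found nearly no *Pbrm1* mRNA. For the tumors it reports, also from real-time PCR, that *Pbrm1* mRNA was much lower in the knockout than in the control. The table gives 1 value per gene, so it does not show which exons of *Pbrm1* the remaining reads in the tumors cover. Reads of host cells, which carry the intact gene, and reads of an edited transcript cannot be told apart in it.

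*Phf10*, the subunit with paired PHD fingers, fell together with *Pbrm1* in both clones. Control tumors 1 to 5 had 11655, 12917.1, 11924.3, 13135.9 and 11566 normalized counts. Clone 4 tumors had 8195.8, 8875.4, 8241, 10806.7 and 9118.9, and clone 18 tumors 8667.1, 7453.7, 8331.6, 8572.2 and 8224. The highest knockout tumor, number 9 of clone 4, was still below the lowest control tumor. Among all genes, 4.87% were lower without overlap in this comparison. The knockout tumors averaged 70.7% of the control level, which is -0.51 on the log2 scale (SE 0.07, interval -0.65 to -0.36, limma adjusted p = 5.29e-05, exact permutation p = 0.000333), which ranked 306 by p among the 18250 genes. It was -0.44 in clone 4 (adjusted p = 0.000501) and -0.57 in clone 18 (adjusted p = 4.09e-05). The clones differed by -0.13 (interval -0.28 to 0.03, adjusted p = 0.385).

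*Brd7*, the bromodomain subunit, was lower in the knockout tumors by a small margin. Control tumors 1 to 5 had 3494.3, 3228.8, 3534, 3251.8 and 3544.1 normalized counts. Clone 4 tumors had 3261.3, 3033, 3174, 3213.1 and 2948.6, and clone 18 tumors 3256.4, 2828.7, 2637.6, 2955 and 3028.3. Of the 10 knockout tumors, 8 were below all control tumors, and tumors 6 and 11 reached the lower end of the control range. At 88.9% of the control level on average, the knockout tumors differed by -0.17 on the log2 scale (SE 0.06, interval -0.29 to -0.05, limma adjusted p = 0.0326, exact permutation p = 0.00366). The call rested on the setting, since edgeR on the recovered reads gave -0.15 with an adjusted p of 0.0529, and leaving out control tumor 1, 3 or 5 or clone 18 tumor 12 gave adjusted p values of 0.0788, 0.0853, 0.0847 and 0.0514. Clone 18 alone was called (-0.22, adjusted p = 0.0141) and clone 4 alone was not (-0.13, adjusted p = 0.173). The difference between the clones was -0.09 (interval -0.22 to 0.04, adjusted p = 0.458).

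*Arid2*, which holds the PBAF-specific subunits on the core, was not called in any comparison. Control tumors 1 to 5 had 3736.9, 5158.6, 3671.2, 3438.9 and 3723.9 normalized counts. Clone 4 tumors had 3824.5, 4190.2, 3834.5, 3429.3 and 3628.2, and clone 18 tumors 4148.3, 4868.7, 4097.1, 5243.3 and 4687.4. All clone 18 tumors were above 4 of the 5 control tumors, and control tumor 2 lay within the clone 18 range. The knockout minus control difference was 0.09 (SE 0.10, interval -0.12 to 0.31, limma adjusted p = 0.577, exact permutation p = 0.422). Clone 4 differed from the control by -0.05 (interval -0.26 to 0.16, adjusted p = 0.80) and clone 18 by 0.23 (interval 0.02 to 0.44, adjusted p = 0.0964). Between the clones the difference was 0.28 (interval 0.07 to 0.49, limma adjusted p = 0.124, exact permutation p = 0.0238). Without control tumor 2 the spread shrank, and clone 18 was called higher than the control (0.33, adjusted p = 0.00579) and than clone 4 (0.28, adjusted p = 0.0353), while clone 4 minus control turned to 0.05 (adjusted p = 0.74).

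**Figure D2:**
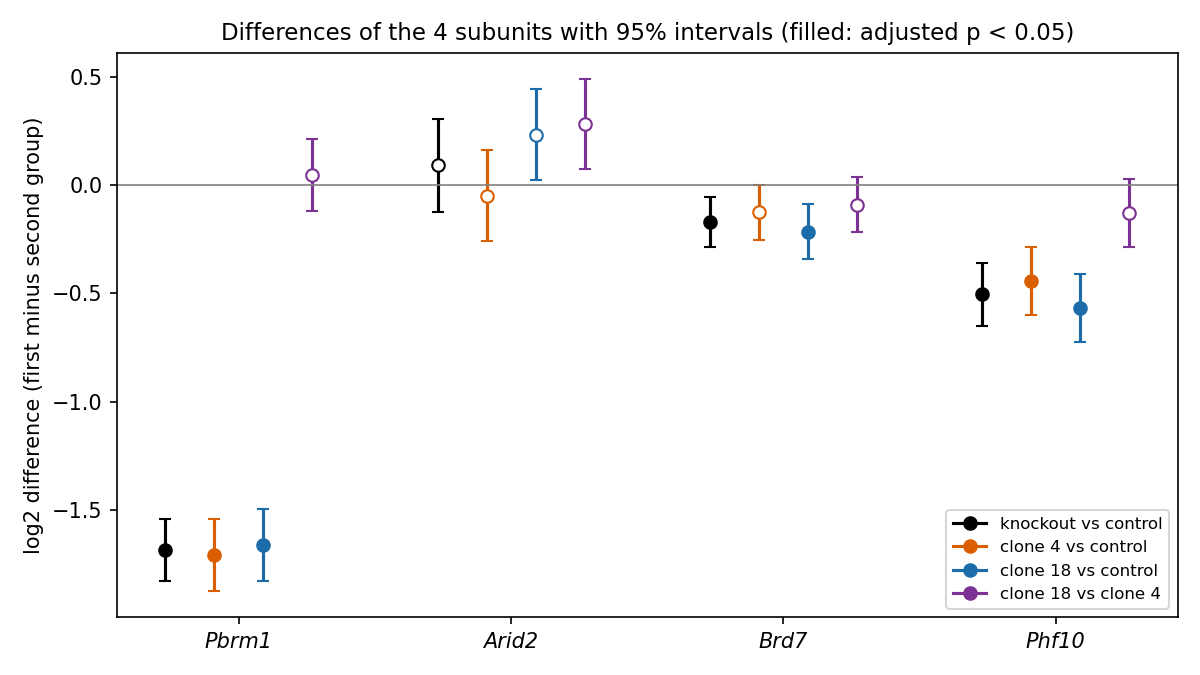
Log2 differences (y axis, first minus second group) of the 4 subunits in 4 comparisons, with 95% intervals from limma and filled points for an adjusted p under 0.05. *Pbrm1* lies near -1.7 and *Phf10* near -0.5 in both clones, *Brd7* is close to 0, and the *Arid2* points are all open.

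Control tumor 2 stood apart for *Arid2*, and long transcripts as a class were high in the same tumor. The exons of *Arid2* add up to 10737 bases, longer than those of 92.1% of the 11893 genes with a length and a mean of at least 100 normalized counts. In tumor 2, *Arid2* was 0.40 above its group's mean on the log2 scale, and the median over the 1156 genes with at least 10000 exon bases was 0.10 above, whereas the median over the shorter genes was -0.02. In tumor 4, *Arid2* was at -0.18 and the long genes at -0.11. After subtracting the group means, *Arid2* followed the long genes over the 15 tumors with a Pearson r of 0.88 and *Pbrm1* (8846 bases) with 0.77, whereas *Brd7* (5244 bases) had 0.03 and *Phf10* (4914 bases) -0.45. These tumors share their libraries, the measure was chosen after the values were seen, *Arid2* is itself 1 of the long genes, and the part of transcript length in the differences between groups was not tested. *Smarca2*, with 14269 exon bases, was also highest among controls in tumor 2.

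Spread and covariation within groups differed between the members. The within-group SD on the log2 scale was 0.17 for *Arid2*, larger than that of 81.9% of 4700 genes of like level, and 0.08 for *Brd7*, larger than that of 11.8%. *Pbrm1* (0.13) and *Phf10* (0.12) lay between. With group means subtracted, *Pbrm1* and *Arid2* had a Pearson r of 0.58 and *Pbrm1* and *Phf10* -0.48 over the 15 tumors, and the other 4 pairs lay between -0.19 and -0.00. Among 12156 genes with a mean of at least 100, the patterns most like *Arid2* were *Nfib* (r = 0.97), *Vps13b* (0.96) and *Ino80d* (0.96), whose exons add up to 14957, 21273 and 17713 bases against a median of 4398. Most like *Pbrm1* were *Rel* (0.88), *Mapre3* (0.87) and *Sec24d* (0.87). Most like *Brd7* were *Herc4* (0.95), *Dennd6a* (0.89) and *Nek4* (0.87), and most like *Phf10* were *Xpa* (0.94), *2700062C07Rik* (0.91) and *Eif2s2* (0.91). The members thus had no common pattern from tumor to tumor within a group.

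The 4 members were set against the rest of the family to see whether other SWI/SNF subunits moved as well. Each subunit was put on 1 list for this comparison, and single subunits may be shared with, or missing from, another form. Of 14 subunits listed as shared core, 13 were in the table, and 4 were called between knockout and control, 1 higher and 3 lower, where 22.1% of all genes were called. Their median log2 difference was -0.00, beside -0.02 over all genes. *Smarcd2*, 1 of 3 alternative BAF60 subunits, was lower in all 10 knockout tumors, with 2730.3 to 3374.2 normalized counts against 4165 to 4616.5 in the control (-0.54, SE 0.05, limma adjusted p = 1.42e-06). *Smarcd1*, its close relative, was lower by less (-0.26, adjusted p = 0.0244). *Smarcd3*, the remaining BAF60 subunit and named outside the rule for named genes, was low in counts (57.52 ± 20.2 in the control). It was not called (-0.60, interval -1.10 to -0.10, limma adjusted p = 0.0795). *Smarca2*, the alternative ATPase, was at 71.7% of the control mean (-0.50, adjusted p = 0.00483). *Smarcc2*, a scaffold subunit, was higher (0.23, adjusted p = 0.0333). The *Smarcd1* call was lost without control tumor 1, 2 or 5 (adjusted p up to 0.0853), and the *Smarcc2* call without trend (0.0554) or without any 1 of 6 tumors, control 1, 3 and 4, clone 4 tumor 8 and clone 18 tumors 12 and 14 (up to 0.114). *Smarca4*, the main ATPase, had 5761 ± 508.5 normalized counts in the control and 6030 ± 581.4 in the knockout tumors (0.06, interval -0.09 to 0.22, adjusted p = 0.594). The size of the *Smarcd2* difference was near that of *Phf10*, and both were seen in each clone.

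Of 9 subunits listed as BAF-specific, 8 were in the table and 1 was called, again beside 22.1% of all genes. Their median difference was -0.11. *Bcl11b*, a zinc finger subunit known for its role in T cell development, fell from 44.22 ± 10.48 normalized counts to 11.71 ± 8.60 (-2.01, SE 0.35, limma adjusted p = 0.000614), with all knockout tumors below the controls. T cell genes moved in the same direction, with 3 of 5 called lower, beside 12.9% of all genes. Their summed level was 56.3 to 584.9 normalized counts in the control, 21.2 to 120.3 in clone 4 and 30 to 80 in clone 18. The part of T cells in the *Bcl11b* difference was not tested. The counterparts of the members were not called. *Arid1a* was at -0.08 (interval -0.39 to 0.24, limma adjusted p = 0.779). *Arid1b* was at -0.21 (interval -0.38 to -0.05, adjusted p = 0.0635) and *Dpf2* at -0.14 (interval -0.26 to -0.03, adjusted p = 0.0683). Their unadjusted limma p values were 0.0154 and 0.017, so a small fall of these 2 is not excluded. All 3 ncBAF-specific subunits were measured, with a median of -0.01. Of these, *Bicral* was called lower (-0.38, adjusted p = 0.031), a call lost without moderation (0.0569) and without control tumor 1, 2, 3 or 5 (adjusted p up to 0.102), and *Brd9*, the bromodomain counterpart of *Brd7*, was at -0.01 (adjusted p = 0.945). In single clones, outside the rule for named genes and chosen after the values were seen, *Actl6a* was called higher in clone 4 (0.20, adjusted p = 0.027) and *Bcl7c* in clone 18 (0.26, adjusted p = 0.0197). Between the clones, 0 of these 24 subunits were called by limma, edgeR or DESeq2, where limma called only 4.62% of all genes. Of the 24, 5 had an unadjusted limma p under 0.05.

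**Figure D3:**
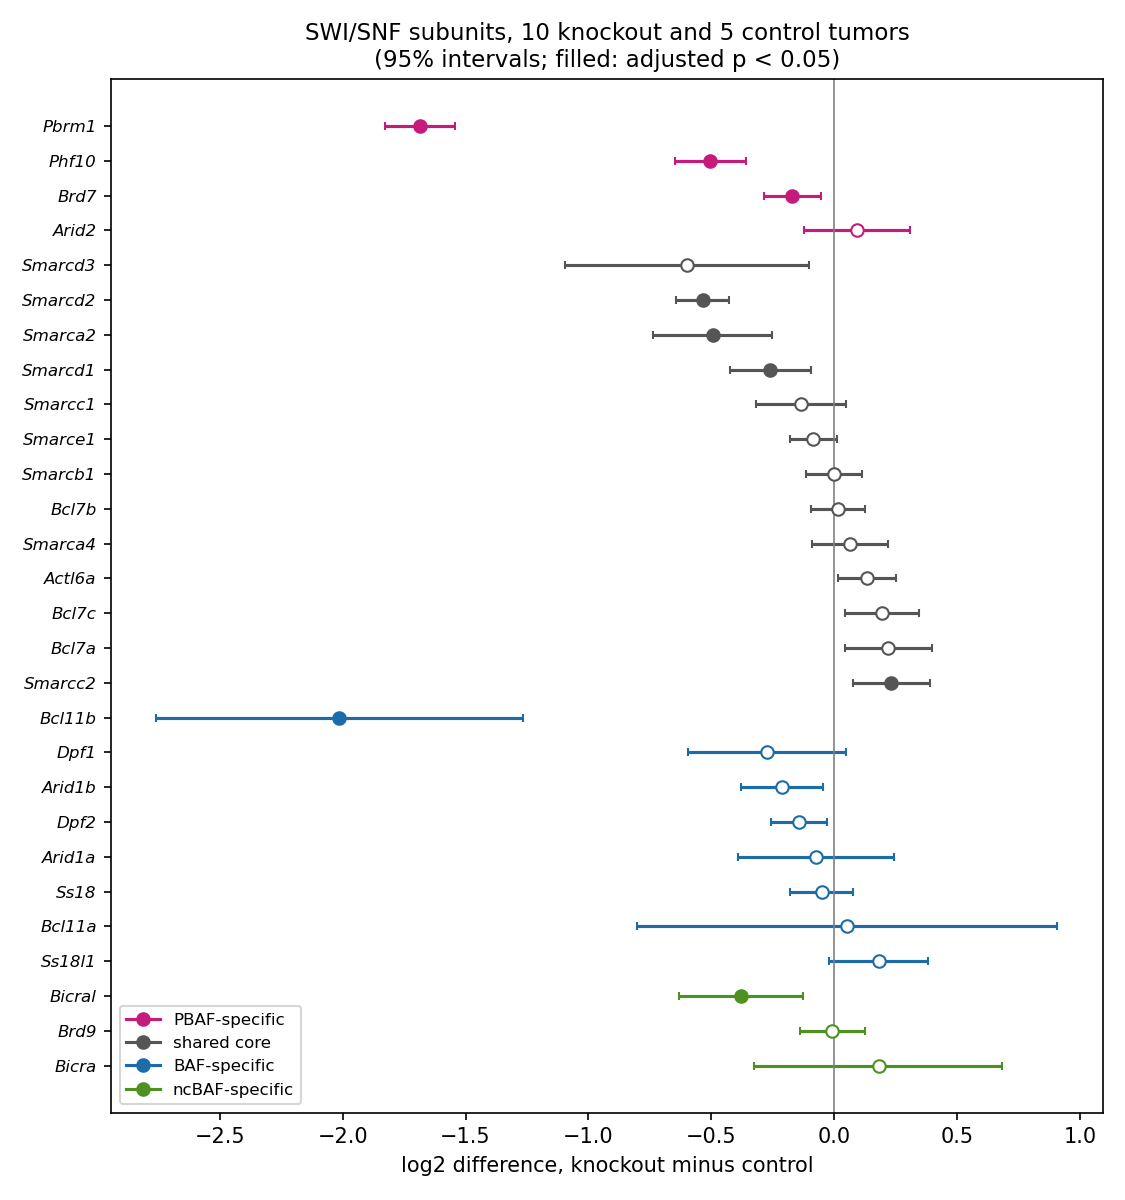
Log2 difference (x axis, knockout minus control, with 95% intervals) of the SWI/SNF subunits in the table, grouped by list, with filled points for an adjusted p under 0.05. *Pbrm1* and the low-count gene *Bcl11b* lie far to the left. *Phf10*, *Smarcd2* and *Smarca2* lie near -0.5, the uncalled low-count gene *Smarcd3* at -0.60, *Bicral* at -0.38 and most others near 0.

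Ratios within a tumor do not depend on the size factors, so they compare the members with their counterparts free of scaling. Control tumors had a log2 ratio of *Phf10* over *Dpf2* of 2.44 ± 0.12, clone 4 tumors of 2.13 ± 0.13 and clone 18 tumors of 2.02 ± 0.16 (SD, n = 5), a shift of -0.36 in which the groups overlapped. *Brd7* over *Brd9* shifted by -0.16, from 1.27 ± 0.08 to 1.11 ± 0.17 over both clones. *Arid2* over *Arid1b* went the other way, from 0.08 ± 0.15 in the control to 0.23 ± 0.07 in clone 4 and 0.54 ± 0.08 in clone 18. All clone 18 tumors (0.44 to 0.64) were above all others, the highest of which was at 0.32. *Arid2* over *Arid1a* was spread more widely, with 1.52 ± 0.27 for the control, 1.48 ± 0.22 for clone 4 and 1.90 ± 0.28 for clone 18. Its shift over both clones, 0.17, lay between 0.09 and 0.26 with 1 tumor left out.

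Relative to *Pbrm1* itself, the counts of the other subunits were higher in the knockout tumors. *Pbrm1* over *Smarca4* was 0.64 ± 0.08 in the control and -1.11 ± 0.15 in the knockout tumors. *Arid2* over *Pbrm1* went from -1.20 ± 0.18 to 0.58 ± 0.17, *Brd7* over *Pbrm1* from -1.40 ± 0.16 to 0.12 ± 0.16 and *Phf10* over *Pbrm1* from 0.45 ± 0.22 to 1.63 ± 0.22. None of these 4 ratios overlapped between knockout and control. The shifts of 1.78, 1.52 and 1.18 follow in size the members' own differences, with *Phf10* having kept closest to *Pbrm1*. Because *Pbrm1* was the target, these shifts mostly restate its own fall.

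**Figure D4:**
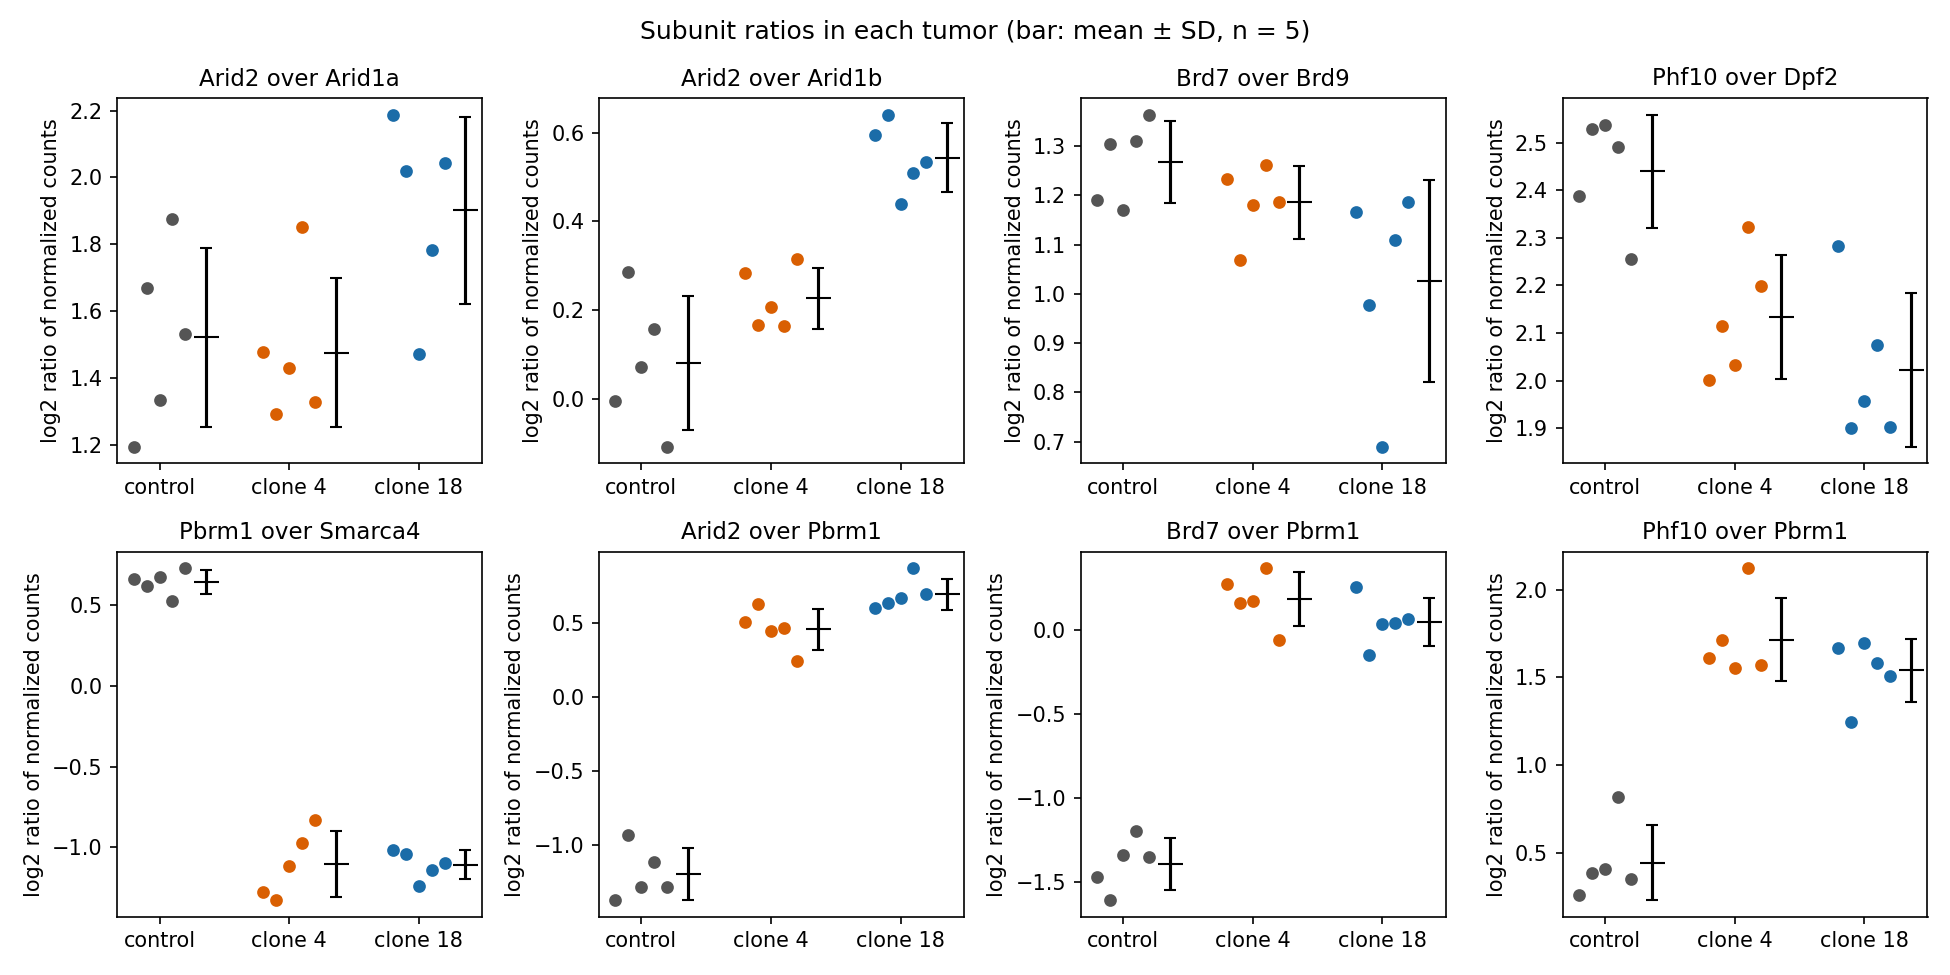
Log2 ratios of normalized counts (y axis, own scale in each panel) of members to their counterparts and to *Pbrm1* in each tumor by group, with bars for the mean ± SD of 5. The ratios to *Pbrm1* and of *Pbrm1* to *Smarca4* separate the knockout from the control tumors, and *Arid2* over *Arid1b* is higher in clone 18 than in the other 2 groups.

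Genes that overlap a member were read beside it, since the strand setting of the counting is not given in the sources used here. *Gnl3* starts head to head with *Pbrm1* on the other strand and shares 15 exon bases with it, and its difference was -0.00 (adjusted p = 0.993). *Smim4* lies across the end of *Pbrm1* on the other strand with 0 shared exon bases and was at 0.02 (adjusted p = 0.924). Thus *Pbrm1* differed and its overlapping neighbours had differences near 0. *Phf10* shares 470 exon bases with *1600012H06Rik* on the other strand, which went the opposite way, from 878.4 ± 113.2 normalized counts in the control to 1075 ± 79.37 in clone 4 and 994.6 ± 54.97 in clone 18 (0.24, SE 0.08, limma adjusted p = 0.0334). If the counting did not use strand, reads of the shared bases cannot be assigned to either gene, and their part in the *Phf10* difference was not tested. No annotated gene overlaps *Brd7*, and those inside *Arid2* and the 2 pseudogenes inside *Pbrm1* have no row of their own.

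Chromosomal surroundings were compared because each clone is 1 line, in which a stretch of a chromosome could differ. Around *Arid2*, all 10 nearest expressed genes (5 on each side with a mean of at least 10) were lower in the knockout tumors, with a median of -0.32, whereas *Arid2* was at 0.09. Of these 10, 6 were called (*Twf1*, *A130051J06Rik*, *Gm17546*, *Slc38a1*, *Slc38a2* and *Slc38a4*), beside 22.1% of all genes. In clone 4 all 10 were lower with a median of -0.50, and *Arid2* was at -0.05. There 8 were called, *Ano6* and *Scaf11* with the former 6, beside 16.8% of all genes. In clone 18 their median was -0.17 and 3 were called, beside 24.7% of all genes. Chromosome 15 as a whole had medians of -0.12 and -0.08 in these comparisons. Over 15 expressed genes on each side, 25 of 30 were lower and 17 were called lower in clone 4, where 10.0% of all genes were. In clone 18 against the control, 18 of 30 were lower, 4 were called lower and 3 higher, with a median of -0.05, where 14.2% of all genes were called lower. Directly between the clones, 11 of 30 were called higher in clone 18 than in clone 4, beside 2.49% of all genes. Their median in clone 18 minus clone 4 was 0.37, beside 0.28 for *Arid2*. This wider window was chosen after the values were seen, and copy number was not measured.

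In the knockout tumors the windows of 30 had medians of 0.02 around *Pbrm1* (7 called lower, 2 higher), -0.09 around *Brd7* (4 and 2) and 0.03 around *Phf10* (1 and 4). Over all genes 22.1% were called in this comparison and 12.9% were called lower. Around *Pbrm1*, 2 of 10 genes were called (*Stab1* at -0.53 and *Tnnc1* at -0.63) with a median of -0.07, so its fall of 1.69 stands out from these 10. In the wider window *Mustn1* (-4.28, adjusted p = 1.98e-10) and *Itih4* (-2.75, adjusted p = 4.14e-05), named after their values were seen, lay 9 and 8 genes before *Pbrm1* and were lower by nearly the same amount in each clone. Around *Brd7*, *Adcy7* (-0.50) and *Cyld* (-0.35) were called lower and the median was -0.11, near the -0.17 of *Brd7* itself. In clone 18 *Sall1* was called as well, higher by 0.43. Around *Phf10* the median was 0.05, and the called genes *1600012H06Rik* and *Fam120b* (0.24, adjusted p = 0.00622) were higher. *Tbp* was called higher in clone 18 (0.19). *Phf10* thus fell among neighbours whose median did not.

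**Figure D5:**
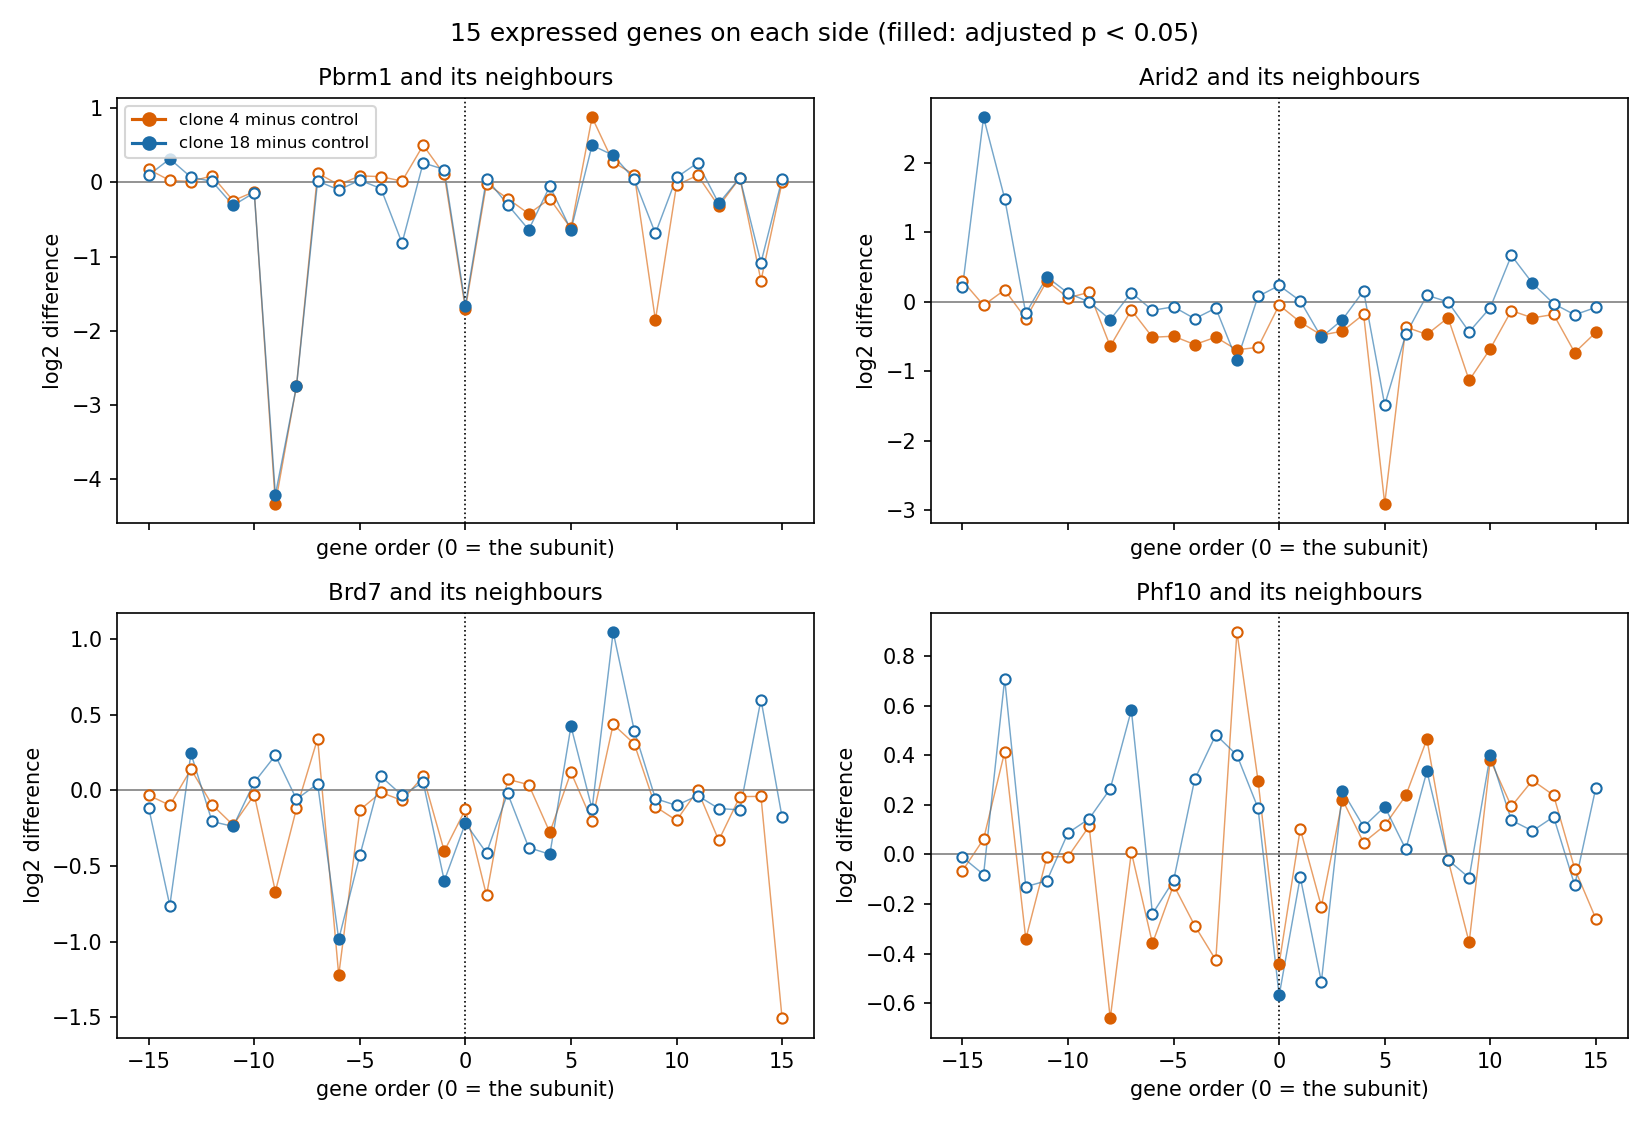
Log2 differences (y axis, own scale in each panel) of clone 4 and clone 18 from the control for each member, at position 0, and 15 expressed genes on each side in chromosomal order (x axis), with filled points for an adjusted p under 0.05. Clone 4 points lie below 0 for 25 of the 30 neighbours of *Arid2*, and *Pbrm1* and *Phf10* drop at position 0 below the genes next to them.

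Marker genes gave the cell types present in the tumors. All 6 renal epithelial genes summed here were measured (*Pax8*, *Pax2*, *Krt8*, *Krt18*, *Cdh16* and *Epcam*), and they summed to 107900 to 129000 normalized counts per control tumor, 90890 to 121000 per clone 4 tumor and 94730 to 111100 per clone 18 tumor, with 1 gene called higher and 1 lower. The abundant *Krt8*, *Krt18* and *Cdh16* make up most of this sum. *Epcam*, the gene called higher, had medians of 140.9, 366 and 267 in the control, clone 4 and clone 18, and *Krt18*, the gene called lower, 31350, 24190 and 24850. The medians of *Pax2* were 125.3, 146.6 and 160, and those of *Pax8* 3764, 3335 and 3105. Leukocyte genes summed to 11580 to 20760, 11900 to 15250 and 9351 to 12910, with 2 of 3 called lower. Macrophage genes summed to 56350 to 69680, 45560 to 60940 and 43990 to 58000, with 1 of 5 called higher and 2 lower. Their members did not go 1 way, with medians of 6681, 9443 and 8029 for *Cd14* and of 15560, 12240 and 9123 for *Csf1r*. Over all genes 22.1% were called between knockout and control and 12.9% were called lower. Neutrophil genes had 1 of 4 called lower, and of the endothelial (5), fibroblast (5) and proliferation (5) genes 0 were called by limma, edgeR or DESeq2 and 0 had an unadjusted limma p under 0.05. Skeletal muscle genes (3) summed to 2.8 to 60.4, 8 to 900 and 14.8 to 1236 normalized counts, with 0 called by limma (1 at an unadjusted p under 0.05) and 3 by edgeR and by DESeq2. Fibroblast genes reached 108900 in 1 clone 4 tumor, where the control range was 29580 to 48000. *Xist* ranged from 1222 to 2406, from 1150 to 3617 and from 1004 to 1780 in the same order of groups, and of 4 Y-linked genes 2 were in the table, with sums of 13.9 to 44.3 over all tumors. The part of the tumors' cell makeup in the differences of *Phf10* and *Brd7* was not tested.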

How the data were processed

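RNA from 15 subcutaneous Renca tumors was measured by bulk RNA sequencing, with 5 tumors for each of 3 lines. The authors deposited 1 signal value per gene and tumor, a read count from HTSeq over TopHat2 alignments to mm10, divided by the tumor's DESeq size factor and rounded to 0.1. Versions, annotation, strand setting and gene filter are not given in the sources used here. Values up to 8000 were whole multiples (within 0.051) of 1 step per tumor in at least 99.9% of genes, so whole reads were recovered, 32924414 to 49099168 per tumor. These carry no molecular identifiers and give counting error only. All 30 within-group pairs of tumors differed beyond sampling noise.

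Of 18279 genes, 29 were at 0 in every tumor and 18250 were tested as log2(normalized count + 1) with limma 3.58.1 with trend, once with both clones as 1 knockout group and once with 1 term per group. The study had combined the clones in the same way. Benjamini-Hochberg adjustment ran over all genes. Exact permutation tests were two-sided, over 3003 splits (5 against 10) or 252 (5 against 5, smallest p 0.00794). Fold changes of low genes are understated on this scale. The alternatives tried were other pseudocounts (0.1 and 5), a mean of at least 10, upper quartile scaling, quantile normalization, limma without trend, a linear model without moderation, count tests on the recovered reads (edgeR 4.0.16, DESeq2 1.42.0) and the omission of each tumor. Tested on simulated data for knockout against control with 200 changed genes among 18243, the share found was 95% in limma, 96.5% in edgeR and 97.5% in DESeq2, and the share of false calls was 2.56%, 2.03% and 11.36%. The changed genes had a median log2 size of 0.995 in limma, above the *Phf10* and *Brd7* differences. In the data 22.1% of genes were called, so these shares do not carry over to *Phf10* or *Brd7*.

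Named genes were the 4 members, family members called between knockout and control or between the clones, the counterparts *Arid1a*, *Arid1b*, *Brd9*, *Dpf2* and *Smarca4*, genes overlapping a member, called genes among the nearest 5 on each side, and the 3 genes most like each member within groups. One gene of the renal epithelial list is not reported here and was left out of its sum. The members and the lists were chosen with earlier results of these data known. Positions and exon lengths are from GENCODE M21 and promoters from RefSeq, both on GRCm38. Exon lengths, the union of annotated exons, were found for 97.8% of the 12156 genes averaging at least 100 normalized counts. The software was Python 3.11.15 (matplotlib 3.10.9, numpy 2.4.6, pandas 2.3.3) and R 4.3.3.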

Additional observations from a re-analysis of the deposited data

Results flagged for a closer look

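Of 69 sets of 5 values examined (15 genes and 8 ratios in each of 3 groups, the genes being the members, the 5 counterparts and the 6 family subunits called between knockout and control), 5 had 1 tumor far from the other 4 by Dixon's criterion at the 95% level, where chance gives about 1 in 20. *Arid2* in control tumor 2 was at 5158.6 normalized counts against 3438.9 to 3736.9 in the other control tumors. *Smarca2*, another long transcript named here, was at 3284.3 in the same tumor against 2540.8 to 2726. *Bcl11b* in clone 4 tumor 7 was at 33.4 against 6.7 to 10.9 in the others. The summed T cell level of that tumor was 102.2 normalized counts, in a group with a range of 21.2 to 120.3. The highest sum was that of tumor 10, whose *Bcl11b* was not raised, and a link between the 2 measures was not tested. The log2 ratio of *Phf10* over *Pbrm1* was 0.82 in control tumor 4 against 0.26 to 0.41 in the others, and 2.12 in clone 4 tumor 9 against 1.55 to 1.71. These 2 tumors also had the lowest long-gene level of their group (-0.11 and -0.10 from the group mean), with *Arid2* at -0.18 and -0.14.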

How the results depend on the processing

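Over 9 alternatives of scaling, filter and test, *Pbrm1* in the knockout tumors stayed between -1.69 and -1.65 and *Phf10* between -0.51 and -0.46, both called in each, and *Brd7* lay between -0.17 and -0.14. The *Brd7* call was lost with edgeR (-0.149, adjusted p = 0.0529). *Arid2* in clone 18 minus control became called under quantile normalization (0.279, adjusted p = 0.0379), within a range of adjusted p from 0.0379 to 0.145. DESeq2 called 1354 genes between the clones against 844. In knockout against control it called 8 shared core genes against 4. In the same comparison, 2 BAF-specific and 0 ncBAF-specific genes were called without moderation, in place of 1 each. The cause of these changes was not tested. Quantile normalization also turned the split of all calls from 1684 higher and 2356 lower to 2265 and 1971 in knockout against control, from 1240 and 1831 to 1645 and 1578 in clone 4 and from 1901 and 2598 to 2455 and 2142 in clone 18, while the members kept their directions.

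With 1 tumor left out, *Pbrm1* ranged from -1.752 to -1.651, *Phf10* from -0.542 to -0.479, *Brd7* from -0.19 to -0.149 and *Arid2* from 0.046 to 0.193 in the knockout tumors. *Arid2* in clone 4 minus control ranged from -0.095 to 0.051 and turned positive only without control tumor 2 (0.051). It ranged from 0.185 to 0.334 in clone 18 minus control and from 0.234 to 0.323 between the clones, called in both only without that tumor. The *Brd7* call was lost without control tumor 1, 3 or 5 or clone 18 tumor 12. Called shared core genes ranged from 2 (without control tumor 1) to 6, BAF-specific from 1 to 2 (2 without control tumor 3 or 4, clone 4 tumor 7 or clone 18 tumor 14) and ncBAF-specific from 0 (without control tumor 1, 2, 3 or 5) to 1. No paired analysis was possible because the labels give no number that ties a tumor of 1 group to a tumor of another. With 1 line per group, the number of lines limits what can be said of the genotype.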
